A study of Mus musculus with 4 samples.

Results

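The complement genes described here are 9 genes of the mouse: the C1 proteases C1ra and C1s1, the classical pathway components C4b and C2, the central component C3, the alternative pathway protease Cfb, the inhibitor Serping1, and the anaphylatoxin receptors C3ar1 and C5ar1. They are 9 of the 55421 genes listed for each library, found by matching the Ensembl identifier to GENCODE M21. These genes were selected on values of these same cultures, so their difference between cultures with and without FGF2 (fibroblast growth factor 2, a growth factor often added to neural cultures) is given as a description and not as a test. The cultures came from the prefrontal cortex (PFC) of wild-type C57BL/6 mice at postnatal day 0. The tissue was freed of meninges and blood vessels, dissociated with papain and grown for 10 days in neurobasal medium with B27 and GlutaMAX. FGF2 was added at 5 ng/mL to the treated group, and the control group (no FGF2) received none. Total RNA was sequenced from 2 libraries of each group, with 9166432 and 9907613 counts on genes with FGF2 and 10460236 and 10799886 without. The sample titles do not say what separates the libraries of a group, and the methods give technical replicates for the samples they do not list, so p-values may cover technical spread only and n counts libraries throughout.

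Complement is a cascade of plasma proteins that tags cells, debris and microbes for removal. The classical pathway begins when C1q binds a surface and turns on the proteases C1r and C1s, which cut C4 and C2. The lectin and alternative pathways start elsewhere, and all of them converge on cleavage of C3, whose fragments mark surfaces and signal through receptors on phagocytes. In the brain, astrocytes and microglia are known sources of complement, and C1q and C3 take part in the removal of synapses by microglia. The liver makes most of the circulating proteins, and many of them belong to the acute phase response that NF-kB, STAT3 and C/EBP factors drive there.

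The transcripts of 7 of the 9 genes were higher in both FGF2 libraries than in either library without FGF2, and the remaining 2, C2 and Cfb, were too low to be tested. In the fit over all genes (edgeR quasi-likelihood test with Benjamini-Hochberg adjustment), 7 of the 7 tested members had an adjusted p below 0.05, all of them higher with FGF2. Of the 17144 genes tested, 40.5% passed that threshold, 20.7% being higher and 19.9% lower, and 33.6% had both FGF2 libraries above both others. Higher calls with a log2 fold change above 1, which the 7 tested members all had, made up 5.22% of the genes tested. Because the members were picked on this contrast, nothing is read from their count. C5ar1, the least abundant of the 7, lost its call with DESeq2 (adjusted p = 0.129), without FGF2 replicate 1 (adjusted p = 0.0739, edgeR) and without no FGF2 replicate 2 (adjusted p = 0.124, edgeR). RNA was taken from whole cultures, so more cells of an expressing type and more RNA per cell cannot be told apart.

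**Figure D1:**
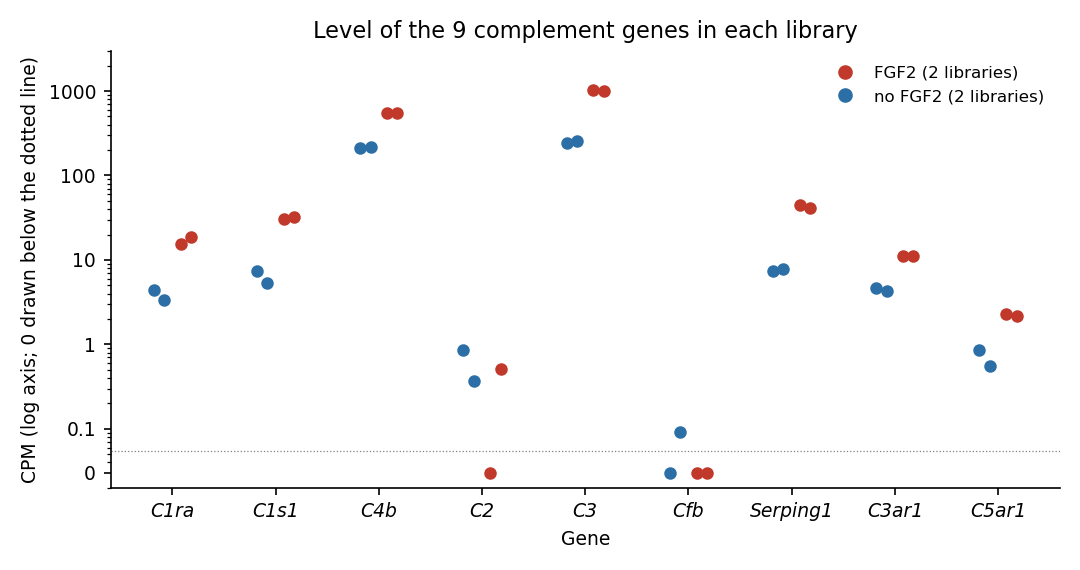
Level of the 9 complement genes in CPM (counts scaled to a common library size, log axis) in the 2 libraries with FGF2 (red) and the 2 without (blue). Points below the dotted line are libraries with 0 counts. C3 stood at 1009 to 1039 CPM with FGF2 and 242 to 253 CPM without, and the groups overlapped for C2 and Cfb alone among the 9 genes.

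The sequence just upstream of 2 members is shown because C3 carried the highest member level and C1s1 one of the steepest differences, and because these windows lie wholly outside the GENCODE model of their gene. Both are the 250 bases before the RefSeq start, read 5′ to 3′ on the strand of the gene in GRCm38.p6 (mm10). The C3 window is chr17:57228137-57228386 on the minus strand, and the C1s1 window is chr6:124542360-124542609, also on the minus strand. Capitals mark letters that match TTNNGNAA, a loose form of the C/EBP site, on either strand, where N is any base.
C3: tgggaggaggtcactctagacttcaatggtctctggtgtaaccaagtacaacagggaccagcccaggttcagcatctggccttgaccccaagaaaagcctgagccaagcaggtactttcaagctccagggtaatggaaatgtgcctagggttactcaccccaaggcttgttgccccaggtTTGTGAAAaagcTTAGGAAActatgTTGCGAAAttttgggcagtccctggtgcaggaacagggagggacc
C1s1: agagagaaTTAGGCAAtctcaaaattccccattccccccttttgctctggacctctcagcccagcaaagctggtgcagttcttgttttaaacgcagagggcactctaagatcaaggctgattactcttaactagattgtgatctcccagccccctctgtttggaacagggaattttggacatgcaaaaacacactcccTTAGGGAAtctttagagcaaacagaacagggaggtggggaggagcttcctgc
C3 held 3 such positions, at -70 to -63, -58 to -51 and -45 to -38 from the start, and the last matched on both strands. At least 1 match was found in 36.8% of the 32851 RefSeq promoter windows of this length, and at least 3 in 2.61% of them. C1s1 held 2 matches, at -242 to -235 and -52 to -45, and a second RefSeq start of the gene gave a window with 1. The windows of C1ra and C5ar1 held 2 matches and 1 match, whereas that of C3ar1 held none. No window of these 5 genes matched TTCNNNGAA, the core of a STAT site (7.02% of all windows), or the kappaB consensus of NF-kB (7.25%). GAAANNGAA, a part of the interferon-stimulated response element, matched once in C5ar1 at -66 to -58 (7.13% of all windows), and TATAAA matched once in C3ar1 at -235 to -230 (12.4%). C2, C4b, Cfb and Serping1 were not searched. A match is a description of letters and not a site of binding.

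C1r and C1s are the proteases of the C1 complex, and each was higher with FGF2. C1ra (chr6:124512405-124523443, plus strand) stood at 15.6 and 18.8 CPM in FGF2 replicates 1 and 2 and at 4.38 and 3.33 CPM in the control replicates. The FGF2 libraries lay well above the control libraries, at 17.2 ± 2.23 against 3.85 ± 0.745 CPM (SD, n = 2), which is a log2 fold change of 2.16 ± 0.21 (SE). C1s1 (chr6:124530345-124542359, minus strand) stood at 30.3 and 32.1 CPM with FGF2 and at 7.42 and 5.26 CPM without. Its groups were again apart, with a log2 fold change of 2.30 ± 0.16 (SE). The genes lie 6901 bases from each other and are read from opposite strands. The C1s1 to C1ra ratio of counts was 1.94 and 1.71 with FGF2 and 1.70 and 1.58 without. Each has a near copy in the same cluster, and the mapping quality filter drops reads that fit both copies equally, so their counts may be too low. C1ra matched C1rb over 2432 transcript bases at 97.9% identity, and C1s1 matched C1s2 over 2644 bases at 96.0%. C1rb had at most 1 count in a library, and C1s2 drew 9 and 8 counts in the FGF2 libraries against 4 and 11 in the controls. C1s1 also shares 576 of its 3129 exonic bases with the antisense gene Gm16567, which is listed at 0 in every library.

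C4b and C2 supply the C3 convertase of the classical pathway. C4b (chr17:34728380-34743882, minus strand) stood at 550.4 and 545 CPM with FGF2 and at 209 and 219 CPM without. All 4 libraries fell close to their group mean, at 548 ± 3.89 against 214 ± 7.07 CPM (SD, n = 2), for a log2 fold change of 1.36 ± 0.04 (SE). Its paralog C4a, which shares 5378 transcript bases at 96.0% identity, stood at 4.30 and 2.44 CPM with FGF2 and 3.90 and 3.60 CPM without. C4a did not pass the test (log2 fold change -0.16 ± 0.32, adjusted p = 0.731 by edgeR), and it took 0.446% to 1.84% of the counts placed on either gene. Reads that fit both paralogs were not counted, so these values rest on the bases that tell the paralogs apart.

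C2 and Cfb are neighbouring genes for related proteases, which cut C3 as part of the classical and the alternative convertase. C2 (chr17:34862604-34898265, minus strand) had 0 and 5 counts in the FGF2 libraries against 9 and 4 in the control libraries, and these groups overlapped. The 5 counts with FGF2 against 13 without gave a ratio of 0.436, with an exact 95% counting interval of 0.122 to 1.30. Cfb (chr17:34856374-34862518, minus strand) had no counts with FGF2 and 0 and 1 counts without. A library with 0 counts could still hold up to 3, which is 0.277 to 0.331 CPM, as far as counting error alone goes. Neither gene passed the expression filter.

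The low counts of C2 and Cfb cannot be read as absence, because the annotation places a readthrough gene, Gm20547 (chr17:34856412-34882042, minus strand), across both of them. All 3902 of its exonic bases coincide with exons of C2 or Cfb on the same strand. It takes 2246 of the 2825 exonic bases of Cfb (79.5%) and 1656 of the 3872 exonic bases of C2 (42.8%), which leaves 579 and 2216 bases that belong to 1 gene only. In its default mode HTSeq calls a read pair over the bases of 2 genes ambiguous and gives it to neither, and the authors' mode is not given in the sources used here. Gm20547 is listed at 0 in all 4 libraries, and ambiguous read pairs made up 1.47% to 1.76% of the tallied pairs of a library. Of 288 protein-coding genes with at least 75% of their exonic bases shared in this way, 21 (7.29%) had a mean of at least 10 counts. Of 20225 with no shared bases, 12498 (61.8%) did. The 288 include readthrough models such as Gm20547 itself, so these shares do not compare like genes. They do not show how far sharing lowered the counts of C2 or Cfb. The reads behind the ambiguous tally were not analysed here. No other member shares exonic bases with a gene on its own strand.

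**Figure D2:**
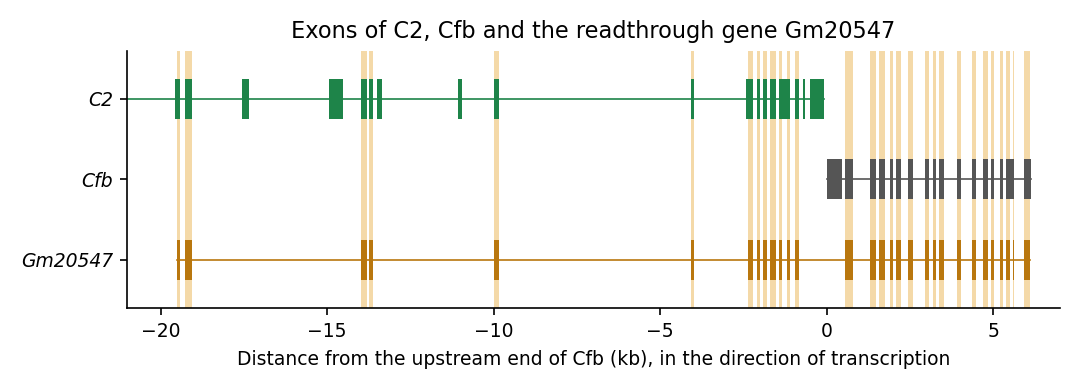
Exons (boxes) of C2, Cfb and the readthrough gene Gm20547, drawn to scale in the direction of transcription, with the distance from the upstream end of Cfb in kb. Shading marks the exons of Gm20547, which cover 79.5% of the exonic bases of Cfb and 42.8% of those of C2, and the C2 model runs on beyond the left edge.

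C3, the component on which every pathway converges, had the highest level of the 9 genes. The gene (chr17:57203970-57228136, minus strand) drew 9430 and 9923 counts with FGF2 and 2538 and 2734 without, which is 0.1% to 0.103% of all gene counts with FGF2 and 0.0243% to 0.0253% without. Its level was 1024 ± 21.4 CPM against 247 ± 7.76 CPM (SD, n = 2), a log2 fold change of 2.05 ± 0.04 (SE). The rise was steeper than that of C4b, as the C3 to C4b ratio of counts shows. That ratio was 1.89 and 1.85 with FGF2 and 1.16 in each control library. C3 thus made up 60.8% to 61.4% of all member counts with FGF2 and 50.8% to 51.2% without, while C4b went from 43.8% to 44.4% without FGF2 to 32.5% to 32.8% with it. The 9 genes together held 0.165% to 0.168% of gene counts with FGF2 and 0.0478% to 0.0494% without.

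Serping1 encodes C1 inhibitor, the serpin that inactivates C1r and C1s, and it had the largest log2 fold change of the 7 tested members. The gene (chr2:84765387-84775444, minus strand) stood at 44.3 and 41.0 CPM with FGF2 and 7.42 and 7.85 CPM without. Its log2 fold change was 2.48 ± 0.14 (SE), so the inhibitor and its target proteases were all higher in the same libraries. Differences between these 3 fold changes were not tested.

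The anaphylatoxin receptors are found mainly on myeloid cells, where they bind the small fragments released from C3 and C5. C3ar1 (chr6:122847138-122856161, minus strand) stood at 11.1 CPM in each FGF2 library and at 4.66 and 4.34 CPM without. Its log2 fold change was 1.30 ± 0.22 (SE), and its groups were apart. C5ar1 (chr7:16246743-16259540, minus strand) had 21 counts in each FGF2 library and 9 and 6 without. At 2.22 ± 0.127 against 0.705 ± 0.214 CPM (SD, n = 2) its log2 fold change was 1.64 ± 0.54 (SE), the least precise among the tested members. C5ar2, the second C5a receptor, was listed at 0 in every library.

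Scaled to exonic length, the order of the members with FGF2 was C3 (199 CPM per kb), C4b (96.2), Serping1 (18.3), C1s1 (9.98), C1ra (5.78), C3ar1 (2.58) and C5ar1 (0.866), followed by C2 and Cfb, whose counts are limited as described. With FGF2 no neighbours in this order overlapped between libraries down to C5ar1. Without FGF2 the order was the same, with C3 at 48.0 and C4b at 37.5 CPM per kb, Serping1 at 3.28, C1s1 at 2.03, C1ra at 1.29 and C3ar1 at 1.05. There C1ra (1.12 and 1.47 CPM per kb) and C3ar1 (1.01 and 1.08 CPM per kb) differed in their means by less than the SD of C1ra, 0.25 CPM per kb. Among the 55240 genes with a length, C3 ranked 60 in each FGF2 library and 609 and 565 in the control libraries. C4b ranked 196 and 191 with FGF2 and 894 and 848 without.

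**Figure D3:**
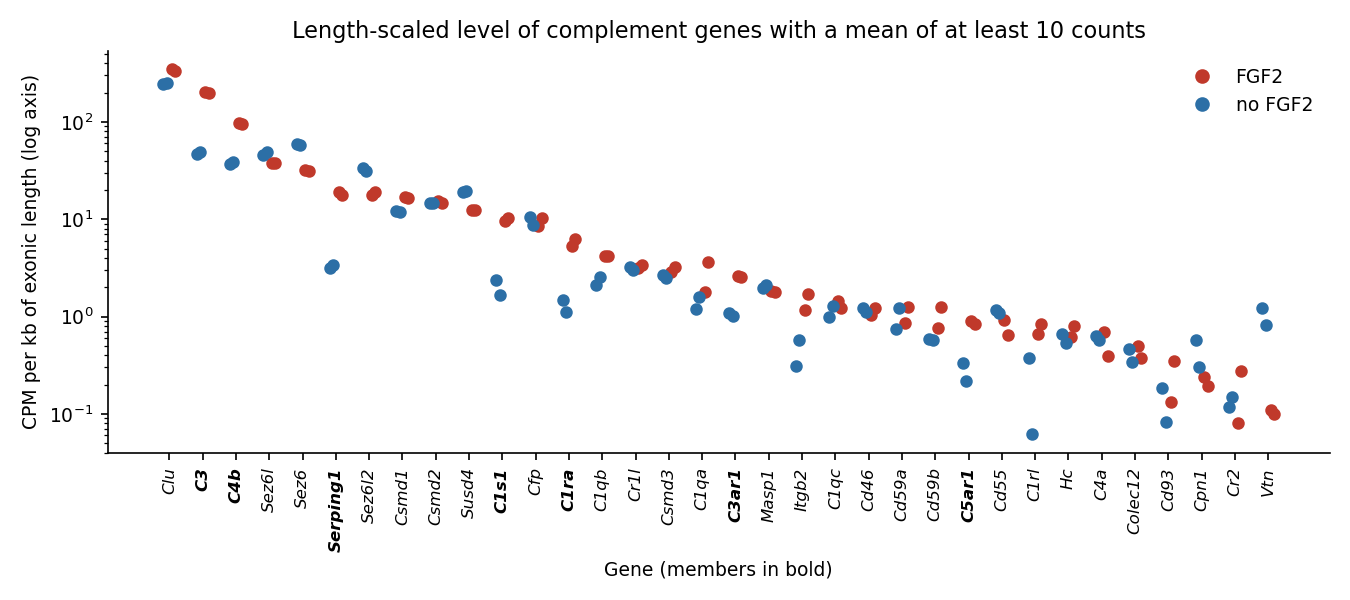
CPM per kb of exonic length (log axis) in each library with FGF2 (red) and without (blue), for the reported complement genes averaging 10 counts or more, ordered by their FGF2 mean, members in bold. C3 stood at 48.0 CPM per kb without FGF2 and 199 with it, C4b at 37.5 and 96.2, and Clu, at 246 and 341, led in both groups.

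The wider complement system did not follow the members as a whole. A list of 55 other components, regulators and receptors, written with the C3 result known, held 27 genes that passed the expression filter. With FGF2 6 of them rose and 5 fell (adjusted p below 0.05, edgeR), which is 22.2% and 18.5% of those tested, near the 20.7% and 19.9% of all genes. The 6 became 3 with DESeq2, without FGF2 replicate 2 and without no FGF2 replicate 2. Their median log2 fold change was 0.09, against 0.00 for all 17144 genes. A further 12 were listed at 0 in all 4 libraries, among them the lectins Mbl1 and Mbl2, the terminal components C6 and C9, the alternative pathway protease Cfd and the macrophage receptor Vsig4.

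**Figure D4:**
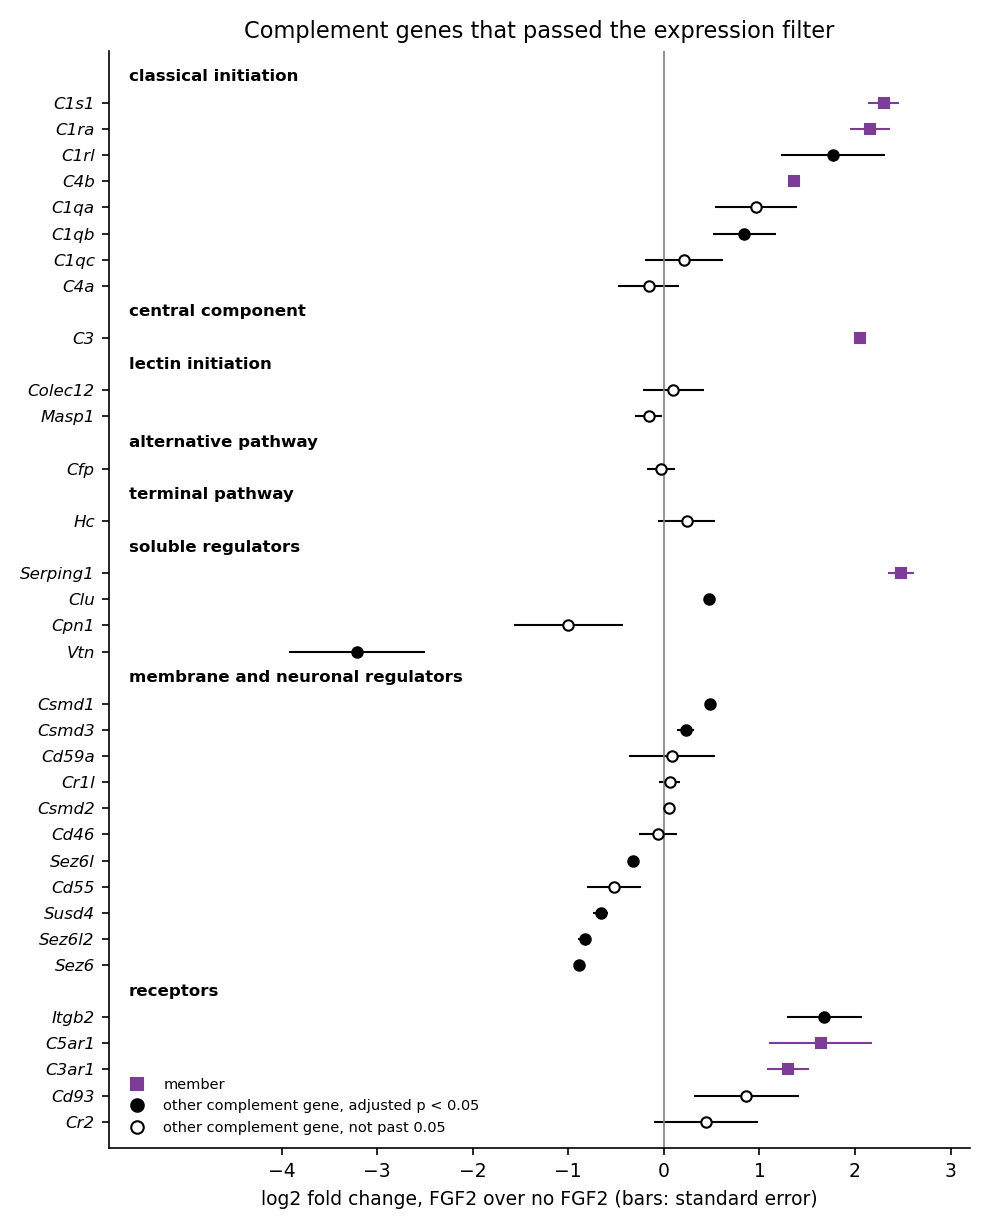
Log2 fold change (FGF2 over no FGF2) with its standard error for complement genes that passed the expression filter and are reported here, grouped by role. Squares are members, filled circles are other genes with an adjusted p below 0.05 and open circles are other genes past no threshold. Members lie between 1.30 and 2.48, and the membrane and neuronal regulators lie on both sides of 0.

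Of the other genes that start the classical pathway, 2 rose in the fit. C1qb, a chain of the recognition subunit that microglia make in the brain, stood at 4.52 and 4.58 CPM with FGF2 and 2.28 and 2.77 CPM without (log2 fold change 0.84 ± 0.33, adjusted p = 0.0282, edgeR). That call was lost with DESeq2 (adjusted p = 0.245) and when any library was left out (adjusted p between 0.0678 without FGF2 replicate 1 and 0.196 without no FGF2 replicate 1, edgeR). C1qa did not pass the test (log2 fold change 0.96 ± 0.43, adjusted p = 0.0623, edgeR), but did without FGF2 replicate 1 (adjusted p = 0.0149, edgeR) and among genes with at least 10 counts in every library (adjusted p = 0.0269, edgeR). C1qc did not pass (log2 fold change 0.21 ± 0.41, adjusted p = 0.732, edgeR). C1rl, a C1r-like protease gene of the same cluster as C1ra, stood at 1.98 and 2.54 CPM with FGF2 and 1.14 and 0.185 CPM without (log2 fold change 1.77 ± 0.54, adjusted p = 0.00391, edgeR). Its call was lost with DESeq2 (adjusted p = 0.14), without FGF2 replicate 2 (adjusted p = 0.1, edgeR) and without no FGF2 replicate 2 (log2 fold change 0.98, adjusted p = 0.255, edgeR).

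The lectin, alternative and terminal pathways showed no called gene. Masp1, a protease of the lectin pathway, stood at 18.2 and 17.7 CPM with FGF2 and 19.3 and 20.7 CPM without (log2 fold change -0.16 ± 0.14, adjusted p = 0.39, edgeR). Cfp, which encodes properdin, the stabilizer of the alternative convertase, had a log2 fold change of -0.03 ± 0.15 (adjusted p = 0.908, edgeR). Hc, the mouse C5 gene, had one of 0.24 ± 0.30 (adjusted p = 0.568, edgeR). A further 7 lectin, 1 alternative and 6 terminal pathway genes did not pass the expression filter.

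The soluble regulators other than Serping1 went different ways. Clu, which encodes clusterin, an inhibitor of the terminal complex and a lipid carrier made by astrocytes, stood at 1200.1 and 1142 CPM with FGF2 and 839 and 855 CPM without. It rose by a log2 fold change of 0.47 ± 0.03 (adjusted p = 1.4e-43, edgeR). Vtn, the gene of vitronectin, an adhesion protein that also blocks the terminal complex, had 2 counts in each FGF2 library and 26 and 18 without. It fell (adjusted p = 3.3e-05, edgeR), and the ratio of control to FGF2 levels was 9.71, with an exact 95% counting interval of 3.53 to 37.2.

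Regulators bound to membranes or made by neurons held 4 of the 5 genes that fell. They were also 11 of the 27 other complement genes tested, and 2 of the 11 rose. Sez6, Sez6l and Sez6l2, a family of neuronal membrane proteins with complement control domains, fell by 0.89 ± 0.05, 0.32 ± 0.05 and 0.83 ± 0.07 on the log2 scale (adjusted p = 9.4e-82, 6.8e-12 and 5.7e-35, edgeR). Sez6 stood at 184 and 181 CPM with FGF2 and 343 and 333 CPM without. Susd4, a membrane regulator of the C3 convertase, stood at 47.4 CPM in each FGF2 library and 73.5 and 76.0 CPM without (log2 fold change -0.66 ± 0.08, adjusted p = 2.5e-14, edgeR). Csmd1, a large synaptic protein that inhibits complement, went the other way, from 229.8 and 225 CPM without FGF2 to 319 and 315 CPM with it (log2 fold change 0.48 ± 0.04, adjusted p = 1.3e-25, edgeR). Csmd3 passed the test at a log2 fold change of 0.23 ± 0.09 (adjusted p = 0.028, edgeR), but not with DESeq2 (adjusted p = 0.266) or without FGF2 replicate 2, no FGF2 replicate 1 or no FGF2 replicate 2 (adjusted p = 0.353, 0.0666 and 0.234, edgeR). Csmd2 did not pass (0.05 ± 0.05, adjusted p = 0.447, edgeR). The membrane regulators Cd46, Cd55, Cd59a and Cr1l did not pass either, with log2 fold changes of -0.06 ± 0.20, -0.52 ± 0.28, 0.09 ± 0.45 and 0.06 ± 0.11 (adjusted p = 0.858, 0.135, 0.9 and 0.707, edgeR).

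Of the 3 complement receptor genes tested outside the members, Cd93 and Cr2 did not pass (adjusted p = 0.214 and 0.555, edgeR). Itgb2 rose. It encodes the shared beta chain of the C3 fragment receptors CR3 and CR4, and stood at 3.53 and 5.19 CPM with FGF2 and 0.952 and 1.75 CPM without (log2 fold change 1.68 ± 0.39, adjusted p = 8.4e-05, edgeR). Its partner Itgam had 2 and 9 counts with FGF2 against 3 and 2 in the controls, and it shares 68.7% of its exonic bases with Gm49368, which is listed at 0, so its counts carry the same limit as those of Cfb. Itgax, the partner in CR4, had at most 1 count in a library.

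Regulators of the acute phase and NF-kB response were also listed with earlier results known. They were transcription factors, NF-kB cofactors and the NF-kB inhibitor Nfkbia (log2 fold change 2.53 ± 0.09). With FGF2 13 of 13 were higher (adjusted p below 0.05, edgeR), at a median log2 fold change of 2.02, against 20.7% of all genes tested. Because the list was written with results of these data known, nothing is read from this count. Cebpd, a C/EBP factor induced in the acute phase, stood at 41.3 and 40.6 CPM with FGF2 and 4.47 and 3.79 CPM without (log2 fold change 3.31 ± 0.16). Nfkbiz, an NF-kB cofactor, stood at 107 and 104 CPM with FGF2 and 12.7 and 15.0 CPM without (2.93 ± 0.10). Stat3 stood at 328 and 323 CPM with FGF2 and 152 and 149.5 CPM without (1.11 ± 0.05). Bcl3, another NF-kB cofactor, had 116 and 90 counts with FGF2 against 0 and 2 in the controls, a ratio of 117 with an exact 95% counting interval of 31.9 to 970.1. The groups were apart for each of these 4 genes. The call of Cebpb (log2 fold change 1.75) was lost with DESeq2 (adjusted p = 0.125). It was also lost without FGF2 replicate 1 or either control replicate (adjusted p = 0.23, 0.0804 and 0.0567, edgeR), and that of Rel without no FGF2 replicate 1 (adjusted p = 0.0503, edgeR). The part of these regulators in the complement levels was not tested.

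The genes around the members did not all move with them. Of 46 genes other than complement genes with a body within 50 kb of a member, 22 were tested. Of these 8 rose and 3 fell (36.4% and 13.6%, edgeR, adjusted p below 0.05), at a median log2 fold change of 0.28. Among all genes tested 20.7% rose and 19.9% fell, at a median of 0.00. Trip10, 21319 bases from C3, rose most, from 5.52 and 6.74 CPM to 18.2 and 14.8 CPM (log2 fold change 1.42 ± 0.19, adjusted p = 4e-13, edgeR). Gpr108, which lies between Trip10 and C3, had a log2 fold change of 0.30 ± 0.12 (adjusted p = 0.0288, edgeR). Ube2l6, an interferon-induced ubiquitin carrier 23384 bases from Serping1, rose by a log2 fold change of 0.90 ± 0.19 (adjusted p = 7.6e-06, edgeR). Beside C5ar1 and C2, Ccdc9 and Zbtb12 had log2 fold changes of 0.44 ± 0.13 and 0.66 ± 0.20 (adjusted p = 0.00413 and 0.00303, edgeR), and Zbtb12 shares 161 exonic bases with C2 on the other strand. Neu1, Stk19 and Ypel4 had log2 fold changes of 0.29 ± 0.13, 0.29 ± 0.12 and 0.37 ± 0.11 (adjusted p = 0.0469, 0.0429 and 0.00284, edgeR). Clstn3 near C1ra, and Slc2a3 and Necap1 near C3ar1, fell by 0.47 ± 0.06, 0.49 ± 0.08 and 0.33 ± 0.07 on the log2 scale (adjusted p = 6.1e-15, 1.4e-08 and 2.8e-05, edgeR). With DESeq2 5 of these 11 genes were called, and Gpr108, Ccdc9, Zbtb12, Neu1, Stk19 and Ypel4 were not. Calls of the same 6 genes also ended without 1 library (edgeR). Without FGF2 replicate 1 this held for Gpr108, Ccdc9, Neu1 and Ypel4 (log2 fold changes 0.26, 0.32, 0.30 and 0.29). Without FGF2 replicate 2 it held for Zbtb12, Neu1 and Stk19 (0.54, 0.28 and 0.20). Without no FGF2 replicate 1 it held for Ccdc9, Stk19 and Ypel4 (0.32, 0.08 and 0.27). Without no FGF2 replicate 2 it held for Gpr108, Neu1 and Zbtb12 (0.17, 0.19 and 0.40). Each of these calls was lost for more than 1 choice of library, so no single library decided it.

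The genes whose pattern over the 4 libraries was most like that of C3 were Ppnr, Nfkb2, Col11a1, Parvb and Vcam1, among 12629 genes of at least 5 CPM that are no complement genes. Likeness was the distance between the 4 log2 CPM values, each gene centred on its mean, and it was 0.03 for Ppnr, 0.10 for Nfkb2 and Col11a1, and 0.12 for Parvb and Vcam1. Vcam1, an adhesion molecule for leukocytes, stood at 366 and 379 CPM with FGF2 and 85.9 and 84.2 CPM without. Nfkb2, which encodes an NF-kB subunit, stood at 35.3 and 32.3 CPM with FGF2 and 7.71 and 8.68 CPM without. With 4 libraries in 2 groups, such likeness mainly reflects an equal fold change.

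Markers of several cell types moved with FGF2 beside the members, and the cultures held astrocyte, neuron and oligodendrocyte transcripts at high levels. The astrocyte list summed to 12708 and 12578 CPM with FGF2 and 7727 and 7679 CPM without, 1.64 times as much, and 8 of its 9 tested genes rose (edgeR, adjusted p below 0.05, as for all lists here) at a median log2 fold change of 0.42. The median of the 7 tested members, which were picked on this contrast, was 2.05. The other lists had medians of 2.05 (oligodendrocyte lineage, 9 genes tested), 1.36 (monocyte and macrophage, 4), 0.69 (microglia, 8) and 7.01 (neutrophil, 2). The neutrophil median rests on S100a8 and S100a9 alone, with at most 2 counts in a control library. Medians of the neuron, meningeal fibroblast and mural, and endothelial lists were -0.58, -0.09 and -0.55, with 10, 9 and 2 genes tested. Oligodendrocyte lineage markers summed to 1864 and 1873 CPM against 559.6 and 569 CPM, and 9 of 9 tested rose. Neuronal markers summed to 3131 and 3192 CPM against 4439.6 and 4430.3 CPM, and 9 of 10 fell. The part of the makeup of the cultures in the complement levels was not tested.

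Myeloid markers were low but also moved. The microglia list summed to 132 and 140.0 CPM with FGF2 and 111 and 112 CPM without, mostly from Sall1 (87.2 to 99.9 CPM), which did not pass the test. Of its 8 tested genes 4 rose, among them Csf1r, the receptor that microglia need to survive, at 5.40 and 5.29 CPM with FGF2 and 2.00 and 1.94 CPM without. The defining markers P2ry12, Tmem119 and Aif1 had 0 to 7 counts in a library, and Siglech was listed at 0 throughout. Monocyte and macrophage markers summed to 42.2 and 48.7 CPM against 22.2 and 24.5 CPM, with 4 of 4 tested higher and Cd163 at 0. The neutrophil list summed to 9.81 and 11.5 CPM against 0.381 and 0.462 CPM through S100a8 and S100a9, which other cells also express, and Ly6g was at 0. S100a8 had 29 and 40 counts in the FGF2 libraries and none in the controls, which is at least 12.9-fold higher against 3 counts per control library. The endothelial list (4.17 to 4.19 CPM with FGF2, 4.38 and 7.67 CPM without) and the meningeal fibroblast and mural list (73.0 and 68.3 against 61.7 and 61.0 CPM) were low. C3ar1, C5ar1, C1qb and Itgb2, which are known from myeloid cells, moved in the same libraries as these markers. The other C1q chains, C1qa and C1qc, and the complement receptors Cd93 and Cr2 did not pass the test. The calls of C5ar1 and C1qb were lost with DESeq2. The part of myeloid cells in these genes was not tested.

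**Figure D5:**
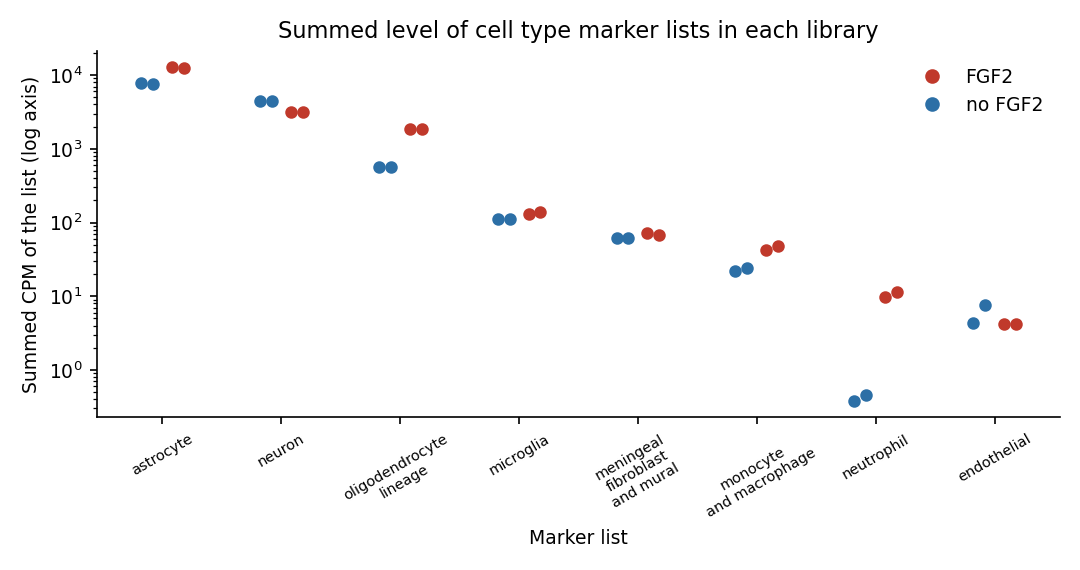
Summed CPM (log axis) of 8 cell type marker lists in each library with FGF2 (red) and without (blue). Astrocyte, oligodendrocyte lineage and myeloid lists were higher with FGF2 and the neuron list lower, from 12708 CPM for the astrocyte list in FGF2 replicate 1 down to 0.381 CPM for the neutrophil list without FGF2.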

How the data were processed

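The RNA of the 4 libraries was extracted with trizol, and total RNA libraries were sequenced as pairs. The authors mapped the reads to mm10 with HISAT2 2.1.0, kept those of mapping quality 20 or more with Samtools and counted genes with HTSeq 0.11.2 (versions per the submitters' processing notes), and they deposited the raw counts without normalization. The annotation release, strand setting and counting mode are not given in the sources used here. Of 55421 listed genes, 55240 matched GENCODE M21 by identifier, and 5 tallies that name no gene were left out (no feature 43.2% to 45.9%, ambiguous 1.47% to 1.76% of read pairs).

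Counts were tested with edgeR 4.0.16 in R 4.3.3 (quasi-likelihood, TMM, factors 0.992 to 1.01, filter by group, robust, Benjamini-Hochberg over 17144 genes, threshold 0.05), FGF2 against no FGF2, 2 libraries each. CPM are TMM-scaled, SD is over 2 libraries, and length is the union of exons. Intervals and the floor of 3 counts cover counting error only. The fits were tested on simulated data. The members and all lists were chosen with earlier results of these data known. The named genes are the members, the complement genes averaging 10 counts or more (others by count), regulators, markers, called genes within 50 kb of a member, and the 5 genes nearest to C3. Some genes that this rule takes are not reported here. Replicates differed by more than sampling noise (chi-square per degree of freedom 2.28 with FGF2 and 1.76 without). Transcripts of 64 complement genes were aligned with BLAST 2.17.0 to all others (at least 100 bases at 95% identity). Promoters are RefSeq windows, matched for 5 of 9 members by symbol. Alternatives were RLE and total count scaling, no filter, at least 10 counts in every library, DESeq2 1.42.0, the replicate block, each library left out, a threshold of 0.01, and the longest transcript as length.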

Additional observations from a re-analysis of the deposited data

How the results depend on the processing

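The 7 tested members kept their direction under every alternative that tested them (C5ar1 was not tested with at least 10 counts in every library), with log2 fold changes between 1.25 (C3ar1) and 2.56 (C1s1), and calls were lost for C5ar1 alone. DESeq2 called 4007 genes in place of 6949, 3 higher complement genes outside the members in place of 6, and 5 genes near members in place of 11, and the cause was not tested. With 1 library left out the higher complement genes numbered 3 to 6. Without a filter or with total count scaling the calls of Neu1 and Stk19 were lost too, and at least 10 counts in every library added C1qa (adjusted p = 0.0269, edgeR).

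Genes that did not pass the test changed sign with 1 library left out, ranging from -0.62 to 0.193 for C4a, -0.125 to 0.34 for Colec12, -0.18 to 0.112 for Cfp, -0.19 to 0.051 for Cd46, -0.227 to 0.50 for Cd59a, -0.012 to 0.12 for Cr1l, -0.697 to 1.04 for Cr2 and -0.02 to 1.53 for Cd93 (log2 fold change). The replicate block called 6814 genes and 7 of 7 tested members, and of the genes named it ended the call of Neu1 (adjusted p = 0.0505, edgeR). The labels do not say whether the replicate numbers pair the libraries. The deviations of same-numbered libraries were uncorrelated (r = 1.3e-05 over 17144 genes). No shared replicate effect was thus visible, which cannot show how the libraries were prepared. A list median moved most for the neutrophil markers, from 7.01 to 2.51 without a filter. Lengths of the longest transcript in place of all exons moved Serping1 from 18.3 to 24.1 CPM per kb with FGF2 and C2 from 0.158 to 0.232 without, and left the order as it was. With 2 libraries per group and few counts, depth limits C2, Cfb, C5ar1, the C1q chains and the myeloid markers.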
